A study of Mus musculus with 2 samples.

Results

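The genes described here encode the major histocompatibility complex (MHC) and the machinery of antigen presentation. They were chosen by name: every gene symbol in the count tables that starts with H2-, the mouse MHC prefix, together with B2m, Cd74, Tap1, Tap2, Tapbp, Nlrc5, Ciita, Psmb8, Psmb9 and Psmb10. This gave 54 of the 39098 gene symbols, of which 53 were counted in control cells and 45 in CFA cells. Of all symbols, 36541 were listed for control cells and 32641 for CFA cells, from 48916096 and 22096268 counted molecules. The lower number in CFA cells is therefore not read as a result on these genes. The 54 comprised 32 class I heavy chains, 8 class I partners, 10 class II chains, 2 class II partners (Cd74 and Ciita) and 2 other H2- symbols (H2-Ke6 and H2-Pb). The choice used names only and no measured level, though earlier results of these data were known when it was made.

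MHC class I molecules consist of a heavy chain, the light chain beta-2-microglobulin encoded by B2m, and a peptide. The peptide is cut by the proteasome, in which interferon-gamma induces exchange of the constitutive catalytic subunits for those encoded by Psmb8, Psmb9 and Psmb10, and is carried into the endoplasmic reticulum by the transporter TAP (Tap1 and Tap2) and loaded with the help of tapasin (Tapbp). Most nucleated cells display class I molecules to CD8 T cells, with neurons known for low levels. Class II molecules are alpha-beta pairs that present peptides from the endosomal route to CD4 T cells, are chaperoned by the invariant chain Cd74, and are known mainly from macrophages, dendritic cells and B cells. Nlrc5 and Ciita are the transactivators of class I and class II genes.

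RNA was measured in single cells of the right trigeminal ganglion (TG), the sensory ganglion of the face, in male C57BL/6 mice aged 5 to 8 weeks. Complete Freund's adjuvant (CFA), an emulsion of killed mycobacteria that causes lasting inflammation, was injected into the right vibrissal pad in 20 μL, and tissue was taken 7 days later. The control mice received saline according to the study's methods, whereas the labels call them untreated. The study had 6 mice per group, but 1 library was made per condition and the number of mice in a library is not given. Ganglia of both groups were dissociated with papain. With 1 library per condition no test between conditions was possible, and every difference below is a difference between these 2 libraries. Intervals are at 95%, cover counting error only and say nothing of the spread between animals.

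After filtering, 6695 control and 3661 CFA cells remained, with 48233077 and 21658155 unique molecular identifiers (UMIs) and medians of 1448 and 1192 UMIs per cell. Classes were named from fixed markers with the 54 genes left out, and each name stands for cells like that type. Sensory neurons and satellite glial cells, the defining cells of the ganglion, were found by their markers in both libraries. Neurons numbered 822 and 428 in the control and CFA libraries (median 43660.0 and 35110.0 UMIs), glia 4184 and 2194, vessel cells 362 and 186, fibroblasts 591 and 403, and immune cells 413 and 248. Unnamed cells made up 4.09% and 2.90% of the libraries. Clusters led by interferon-induced genes lay almost wholly in the control library, with 307 and 8 cells in glia, 15 and 2 in the neuronal subtype PEP1 and 33 and 0 in immune cells. A cluster mostly of 1 library may be that library rather than a cell state, so values are given with and without these clusters. The libraries shared 27 cell labels, and Scrublet marked 107 and 4 cells as doublets, which were kept.

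Promoters of 4 genes are shown because their motifs are those through which class I and class II genes are known to be induced: B2m and H2-T23, which hold an interferon-stimulated response element (ISRE) core, H2-D1, the most abundant heavy chain, which holds a kappa B motif, and H2-Eb1, a class II chain with X and Y box cores. Each is the 250 bases before the RefSeq start site, 5′ to 3′ on the gene's strand in build GRCm38.p6, with matched motifs in capitals. B2m lies at chr2:122147437-122147686 on the plus strand, H2-T23 at chr17:36032702-36032951 on the minus strand, H2-D1 at chr17:35262844-35263093 on the plus strand and H2-Eb1 at chr17:34305617-34305866 on the plus strand.
B2m: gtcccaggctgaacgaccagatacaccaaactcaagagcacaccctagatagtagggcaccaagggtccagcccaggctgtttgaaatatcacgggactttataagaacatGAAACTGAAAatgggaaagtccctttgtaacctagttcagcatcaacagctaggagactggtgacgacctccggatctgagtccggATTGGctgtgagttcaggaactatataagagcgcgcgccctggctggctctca
H2-T23: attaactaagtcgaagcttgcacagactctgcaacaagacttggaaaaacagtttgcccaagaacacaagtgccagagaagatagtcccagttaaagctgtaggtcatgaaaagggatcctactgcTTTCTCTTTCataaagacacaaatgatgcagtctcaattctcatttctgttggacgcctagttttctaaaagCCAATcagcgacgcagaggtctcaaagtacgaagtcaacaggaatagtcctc
H2-D1: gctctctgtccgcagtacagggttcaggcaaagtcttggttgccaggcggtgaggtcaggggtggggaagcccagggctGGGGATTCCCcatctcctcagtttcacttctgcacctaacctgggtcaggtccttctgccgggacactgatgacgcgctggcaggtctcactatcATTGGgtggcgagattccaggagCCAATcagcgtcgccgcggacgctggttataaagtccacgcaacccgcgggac
H2-Eb1: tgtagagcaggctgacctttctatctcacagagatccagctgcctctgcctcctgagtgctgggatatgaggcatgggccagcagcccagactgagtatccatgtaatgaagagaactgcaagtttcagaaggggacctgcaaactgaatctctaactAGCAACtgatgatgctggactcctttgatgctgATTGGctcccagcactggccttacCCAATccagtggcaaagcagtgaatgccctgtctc

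The motifs searched were the ISRE core (GAAA, any 2 bases, GAAA), the core of the gamma-activated site (GAS, TTCNNNGAA), kappa B (the first stretch of capitals in H2-D1), the X box core (AGCAAC) and the Y box core (ATTGG), on both strands. On the minus-oriented match of H2-T23 the capitals therefore read as the reverse complement of the ISRE core. The ISRE core began 139 bases before the start site in B2m and 124 bases before it in H2-T23, and kappa B began 171 bases before it in H2-D1. The X box core of H2-Eb1 began 92 bases before the start site, and the matches in the 4 windows did not overlap. Windows of 300 bases, 250 before and 50 after the start site, were found for 38 of the 54 genes. The ISRE core occurred in 2 of 23 heavy chain windows (H2-T22 and H2-T23) and in 1 of 6 windows of class I partners (B2m), against 3.44% of all 32851 windows. The kappa B motif occurred in 4 heavy chain windows (H2-D1, H2-K1, H2-Q6 and H2-Q7), against 0.107% of all windows. The X box core occurred in 4 of 8 class II chain windows, against 14.8% of all windows, and the Y box core in 7 of them and in 20 heavy chain windows, against 37.4%. GAS cores occurred in 2 heavy chain, 1 partner and 1 class II windows, against 8.30%. These matches are descriptions of letters and not of bound sites, and near-identical gene copies are not independent of each other.

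Class I heavy chains were counted in every cell class. Levels are counts scaled to the UMI total of a class (CPM), and paired values give the control library before the CFA library. In the control library the summed level was 6444 in immune cells, 4033 in vessels, 2229.8 in glia, 1244 in fibroblasts and 638 in neurons. In the CFA library it was 5895 in immune cells, 3061 in vessels, 1069.6 in fibroblasts, 690.2 in glia and 538 in neurons. Immune cells were highest and neurons lowest in both, and the place of glia depended on the interferon-led cluster, without which glia held 1161 and 682 CPM. Neighbouring classes in each order had intervals that did not overlap, except glia without that cluster and fibroblasts in the control library, at 1161 (1133 to 1189.8) and 1244 (1179.8 to 1310.0) CPM.

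Within glia the levels were far from uniform. Non-myelinating Schwann cells held 2495 and 1778 CPM, satellite glial cells, which wrap the neuronal somata, held 1669 and 1364 CPM, and myelinating Schwann cells held 487 and 307 CPM. Oligodendrocyte-like cells were lowest, with 164 and 140.3 CPM. The order of these glial types was the same in both libraries. Among vessel cells, endothelial cells held 4496 and 3338 CPM, and mural cells 1734 and 569 CPM. The plot of heavy chain levels by cell type shows this order and the separation of the interferon-led glia, at 11600.1 CPM in the control library, from every other type.

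**Figure D1:**
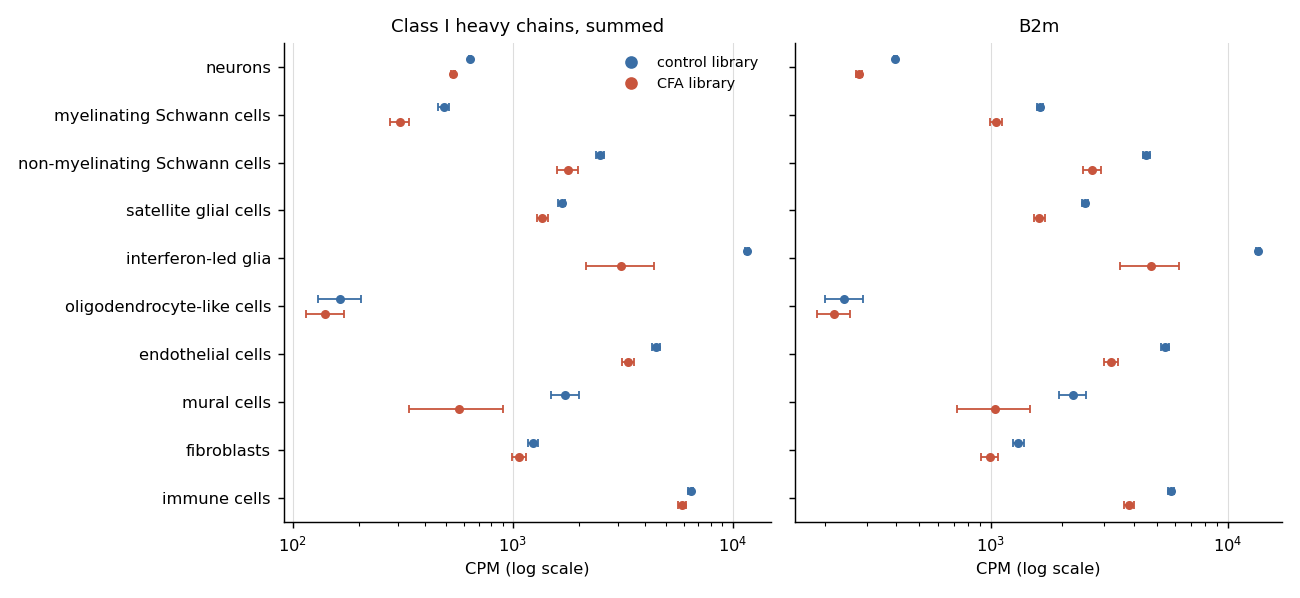
Summed class I heavy chain and B2m levels (CPM, log axis) in each cell type, 1 point per library with its exact Poisson 95% interval for counting error. Immune and endothelial cells lie at the high end and neurons, myelinating Schwann cells and oligodendrocyte-like cells at the low end for heavy chains in both libraries, and interferon-led glia reach 11600.1 CPM of heavy chains in the control library.

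H2-D1 and H2-K1, the classical heavy chains of this strain, supplied most of the counts. H2-D1 (chr17:35263094-35267497, GRCm38) gave 38478 UMIs, or 59.4% of the heavy chain UMIs, and H2-K1 (chr17:33996012-34000619) gave 17372 UMIs, or 26.8%. Heavy chain genes are near-identical over long stretches, so that reads can be split or lost between them and the values of single heavy chains are uncertain. The H2-K1 share of H2-K1 and H2-D1 UMIs, compared between cell classes only, was lowest in neurons, at 25.7% (25.1 to 26.3) and 22.7% (21.8 to 23.6). It was 39.5% and 35.4% in glia, 41.7% and 34.1% in vessels, 41.1% and 38.8% in fibroblasts, and 39.3% and 33.5% in immune cells. Within immune cells the share ran from 11.8% and 9.63% in neutrophils and monocytes to 45.1% and 45.2% in T and NK cells. Heavy chains other than this pair made up 10.3% and 9.75% of heavy chain UMIs in neurons, 19.7% and 22.4% in vessels and 21.7% and 22.7% in fibroblasts.

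Class I levels also differed between neuronal subtypes. Non-peptidergic nociceptors NP2 held 782 and 669 CPM and NP1 held 762 and 687 CPM, peptidergic nociceptors PEP1 held 676 and 573 CPM, low-threshold mechanoreceptors with C fibres (cLTMR) held 439 and 426 CPM, and Nefh-positive neurons (NF) held 252 and 217 CPM. PEP2, the study's name for the small cluster with Sst and Nppb, held 266 and 378 CPM, from 12 and 11 cells. Apart from PEP2, which stood between NF and cLTMR in both libraries, NP1 and NP2 led, with intervals that overlapped between them, and NF was lowest. The interval of PEP2 overlapped that of NF in the control library, at 266 (225 to 313) and 252 (236 to 269.9) CPM, and that of cLTMR in the CFA library, at 378 (328 to 433) and 426 (399 to 455) CPM. The H2-K1 share followed another order, with 31% and 27.7% in PEP1, 27.1% and 23.1% in NP1, 21.8% and 12.9% in NF, 14.3% and 21.7% in PEP2, 13.3% and 14.4% in NP2 and 10.4% and 8.92% in cLTMR. NP1 and NP2 thus had like heavy chain sums with unlike makeup, and in the control library 636 CPM of H2-D1 and 97.5 CPM of H2-K1 were counted in NP2, against 521 and 193 CPM in NP1.

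**Figure D2:**
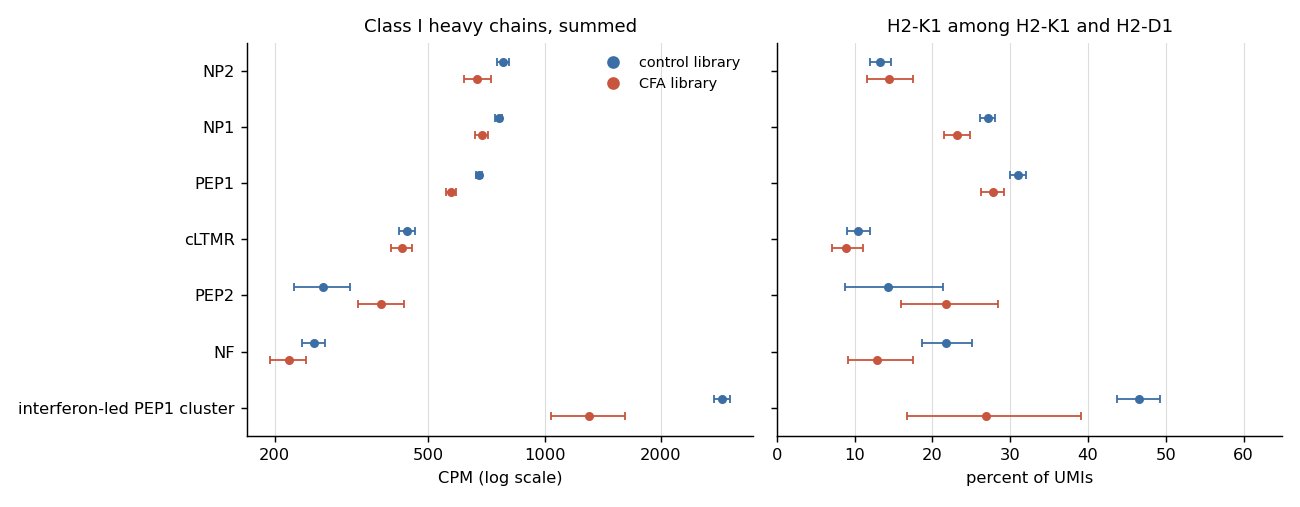
Summed class I heavy chain level (left, CPM, log axis) and H2-K1 share of H2-K1 and H2-D1 UMIs (right, %) in the neuronal subtypes and the interferon-led PEP1 cluster, 1 point per library with exact 95% intervals for counting error. Apart from that cluster NP2 and NP1 are highest for heavy chains, and the H2-K1 share is lowest in cLTMR, at 10.4% and 8.92%.

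B2m (chr2:122147687-122153082), the shared light chain, did not follow the heavy chains within neurons. Its level was 604 and 427 CPM in PEP1 and 353 and 201 CPM in NF. In NP1 it was 317 and 215 CPM, in cLTMR 157 and 126 CPM, in NP2 154 and 84.1 CPM and in PEP2 99.2 and 54.8 CPM. NP2, at the top for heavy chains, was thus among the lowest for B2m, and the control order was PEP1, NF, NP1, cLTMR, NP2, PEP2. In the CFA library NF stood below NP1 and the other places were alike. Neighbours had overlapping intervals for cLTMR and NP2 in the control library, at 157 (145 to 169.7) and 154 (142 to 168) CPM, and for NF and NP1 in the CFA library, at 201 (179 to 224) and 215 (201 to 230.2) CPM, as well as for NP2 and PEP2 there, at 84.1 (66.2 to 105) and 54.8 (37 to 78.2) CPM.

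Neurons are large cells with many UMIs, and levels in CPM and per cell therefore gave different orders. A neuron held on average 29.98 and 21.1 heavy chain UMIs, against 14.4 and 10.3 in an immune cell, 6.79 and 5.20 in a vessel cell and 3.36 and 0.985 in a glial cell. At least 1 B2m UMI was found in 95.6% and 93.2% of neurons, 95.6% and 97.2% of immune cells and 69.2% and 56.8% of myelinating Schwann cells. After thinning of every cell to 500 UMIs these shares were 18% and 13.8% of neurons, 86.1% and 82.3% of immune cells and 48.5% and 38.5% of myelinating Schwann cells. At equal depth neurons were thus the class in which B2m was least often found among these 3.

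Between the libraries, class I heavy chains were lower in CFA in all 5 classes. The log2 ratio of CFA over control was -0.25 (95% interval -0.28 to -0.21) in neurons, -1.69 (-1.76 to -1.63) in glia, -0.40 (-0.51 to -0.29) in vessels, -0.22 (-0.35 to -0.084) in fibroblasts and -0.13 (-0.20 to -0.061) in immune cells. Without the interferon-led clusters it was -0.17 (-0.21 to -0.14) in neurons, -0.77 (-0.84 to -0.70) in glia and 0.013 (-0.057 to 0.082) in immune cells, so that the interval in immune cells spanned 0 and the ratio in glia was closer to 0. B2m gave -0.50 (-0.55 to -0.46) in neurons, -1.55 (-1.61 to -1.50) in glia, -0.71 (-0.82 to -0.60) in vessels, -0.40 (-0.54 to -0.27) in fibroblasts and -0.59 (-0.67 to -0.51) in immune cells. Without the interferon-led clusters the B2m ratio was -0.39 (-0.44 to -0.35) in neurons, -0.97 (-1.02 to -0.91) in glia and -0.33 (-0.41 to -0.25) in immune cells. B2m was lower in the CFA library with and without these clusters in each of the 3 classes that contained one. Glial makeup also differed between the libraries. Of the 5658991 and 3122036 UMIs of glia without the interferon-led cluster, oligodendrocyte-like cells, lowest in heavy chains, held 488127 and 734102. Non-myelinating Schwann cells held 739505 and 195701. The part of this shift in the pooled glial ratios was not tested.

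By type, with the interferon-led glia of 307 control and 8 CFA cells kept apart, the heavy chain ratio was -0.67 (-0.84 to -0.50) in myelinating Schwann cells. It was -0.49 (-0.66 to -0.32) in non-myelinating Schwann cells, -0.29 (-0.38 to -0.20) in satellite glial cells and -0.22 (-0.66 to 0.22) in oligodendrocyte-like cells, whose interval spanned 0. Each of these values was closer to 0 than the -0.77 of pooled glia without that cluster. B2m gave -0.61 in myelinating Schwann cells, -0.75 in non-myelinating Schwann cells and -0.64 in satellite glial cells, against -0.97 in that pool. The heavy chain ratio was -0.43 (-0.54 to -0.32) in endothelial cells and -1.61 (-2.39 to -0.90) in mural cells, of which the CFA library held 23. In immune cells, T and NK cells gave -0.22 (-0.39 to -0.055) and macrophages 0.033 (-0.066 to 0.13). Among neurons, the ratio was -0.15 (-0.21 to -0.087) in NP1, -0.22 (-0.35 to -0.097) in NP2, -0.22 (-0.40 to -0.033) in NF, -0.043 (-0.16 to 0.073) in cLTMR and 0.50 (0.19 to 0.82) in PEP2. In PEP1 it was -0.24 (-0.29 to -0.19) with the 15-cell interferon-led cluster and -0.043 (-0.097 to 0.012) without it, so that the PEP1 difference in heavy chains rested on that cluster. B2m in PEP1 was -0.50 (-0.56 to -0.44) with it and -0.31 (-0.37 to -0.25) without it.

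Genes of the rule were counted as past 2-fold where they had at least 50 UMIs over both libraries in a class. In neurons 4 of 22 such genes were at least 2-fold lower in CFA and 0 were 2-fold higher, against 1.3% and 1.01% of all genes with that many UMIs. The 4 were the class II genes Cd74, H2-Aa, H2-Ab1 and H2-Eb1, and 0 of 16 class I genes passed the fold, with Tap1 just short of it at -0.998. Without the interferon-led PEP1 cluster 4 of 21 neuronal genes, the same class II genes, were lower and 0 higher, against 1.23% and 1.01%. In glia 20 of 22 were lower and 0 higher, against 3.06% and 3.06% of all genes. Without the interferon-led cluster 8 of 19 glial genes were lower and 0 higher, against 2.07% and 2.62%, and these were H2-T23, H2-Q7, Tap1, Psmb8, Psmb9, H2-Aa, H2-Ab1 and H2-Eb1. The class II counts of these glia lay largely in few cells, as given below. In myelinating Schwann cells alone 2 of 9 were lower, against 137 of 7470 of all genes, and in non-myelinating ones 5 of 11, against 168 of 3657. In satellite glial cells 1 of 12 was lower, against 110 of 7393, and in oligodendrocyte-like cells 0 of 2, against 50 of 4040. In vessels 2 of 14 (Cd74 and Tap1) were lower and 0 higher, against 3.37% and 1.61% of all genes. In fibroblasts 1 of 12 (Tap1) was lower and 0 higher, against 2.7% and 2.64%. In immune cells 5 of 24 (Tap1, Tapbp, Psmb8, Psmb9 and Psmb10) were lower and 0 higher, against 6.91% and 2.49%. Without the interferon-led immune cluster 1 of 23 (Psmb9) was lower and 0 higher, against 5.91% and 2.2%, so that the count in immune cells rested on that cluster.

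The median log2 ratio of these genes was -0.46 in neurons, -1.93 in glia, -0.29 in vessels, -0.29 in fibroblasts and -0.38 in immune cells. Over all genes with as many UMIs it was -0.0017 in neurons, 0.024 in glia, 0.029 in vessels, 0.024 in fibroblasts and -0.064 in immune cells. Ratios below 0 were found for 20 of 22 genes in neurons, 22 of 22 in glia, 11 of 14 in vessels, 12 of 12 in fibroblasts and 19 of 24 in immune cells. Of all genes, 7294 of 14502 lay below 0 in neurons, 5125 of 10738 in glia and 1631 of 3474 in vessels. The counts were 2578 of 5452 in fibroblasts and 2561 of 4706 in immune cells. Without the interferon-led clusters the median was -0.25 in neurons, -0.97 in glia and -0.18 in immune cells, with 16 of 21, 19 of 19 and 14 of 23 ratios below 0. Of all genes, 7256 of 14461, 4970 of 10571 and 2410 of 4448 then lay below 0. The count in immune cells was near that share and is not read as a result on these genes.

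**Figure D3:**
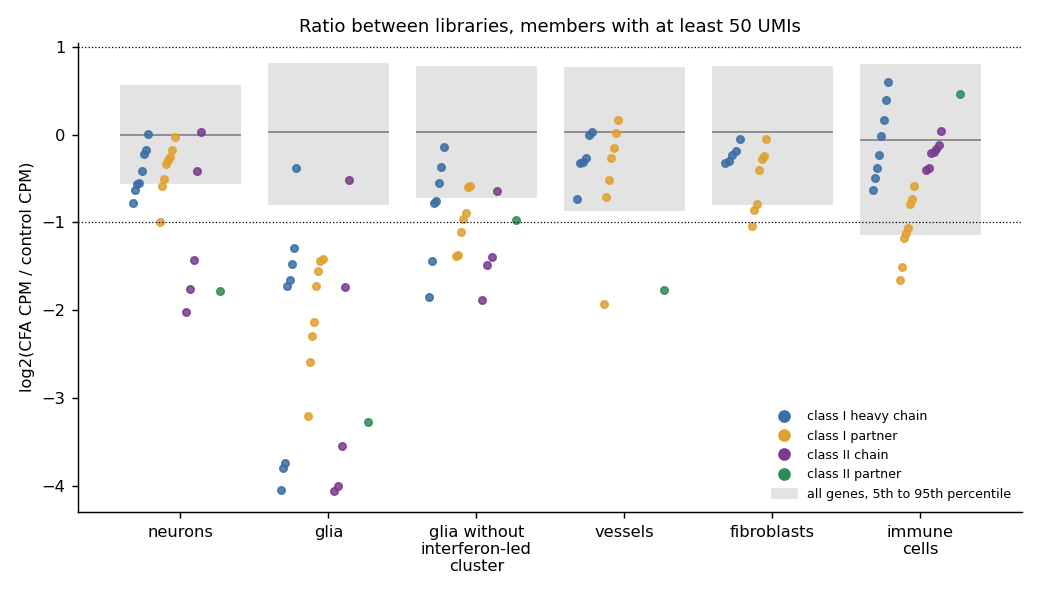
Log2 ratio of CFA over control for each gene with at least 50 UMIs in a cell class, 1 point per gene coloured by its class, beside the 5th to 95th percentile of all genes (grey boxes) and the 2-fold limits (dotted lines). Points lie below 0 for 20 of 22 genes in neurons and 22 of 22 in glia, against 7294 of 14502 and 5125 of 10738 of all genes. No gene of the rule lies above the upper 2-fold limit in any class.

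Among the less abundant heavy chains, H2-T23 (chr17:36029977-36032701), which encodes Qa-1, the ligand of the inhibitory NKG2A receptor of NK cells, had 3247 UMIs. It was counted at 312 and 201 CPM in immune cells, 282 and 225 CPM in vessels, 150.4 and 122 CPM in fibroblasts and 21.9 and 12.8 CPM in neurons. Glia held 196 and 11.8 CPM, from 1234 and 37 UMIs, of which 1032 control UMIs lay in the interferon-led glia. Without that cluster glia held 35.7 and 9.93 CPM, with -1.85 (-2.44 to -1.30) on the log2 scale. The ratio was -0.78 (-0.999 to -0.56) in neurons and -0.64 (-0.998 to -0.28) in immune cells, while in vessels the interval spanned 0, at -0.33 (-0.75 to 0.077). With the interferon-led clusters left out, the ratio was -0.22 (-0.46 to 0.011) in neurons, where the interval spanned 0, and -0.37 (-0.75 to -0.0019) in immune cells.

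H2-Q4, with 1437 UMIs, was rare in neurons, at 2.30 and 1.49 CPM, and more frequent in vessels, at 212 and 215 CPM, and immune cells, at 129.9 and 171 CPM. H2-T22, a ligand of some gamma-delta T cell receptors with 1569 UMIs, was counted at 20.6 and 17.7 CPM in neurons and at 33.6 and 13.7 CPM in glia. Its log2 ratio was -0.22 (-0.42 to -0.028) in neurons and -1.29 (-1.80 to -0.81) in glia. Both intervals spanned 0 without the interferon-led clusters, at -0.13 (-0.33 to 0.066) and -0.36 (-0.94 to 0.19). H2-M3, which presents formylated peptides, held 14.5 and 14.6 CPM in neurons, a ratio of 0.0083 (-0.21 to 0.23). Of the other 27 heavy chain symbols, 6 (H2-M3, H2-Q7, H2-Q6, H2-K2, H2-T10 and H2-Q10) had between 50 and 976 UMIs in all and the rest fewer than 50, so that no ratio is given for the latter.

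Tap1, a subunit of the TAP transporter, was lower in the CFA library in all 5 classes. Tap1 (chr17:34187556-34197225) held 158 and 55.4 CPM in immune cells, 123 and 28.1 CPM in glia, 108 and 28.5 CPM in vessels, 35.9 and 17.5 CPM in fibroblasts and 11.5 and 5.77 CPM in neurons. Its log2 ratio was -1.51 (-2.20 to -0.88) in immune cells, -2.13 (-2.46 to -1.81) in glia, -1.93 (-3.12 to -0.92) in vessels, -1.04 (-2.15 to -0.050) in fibroblasts and -0.998 (-1.33 to -0.68) in neurons. Without the interferon-led clusters it was -1.39 (-1.74 to -1.04) in glia, -0.71 (-1.05 to -0.38) in neurons and -0.95 (-1.66 to -0.28) in immune cells. Vessels and fibroblasts held no interferon-led cluster.

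Tap2 (chr17:34204479-34216321), the other TAP subunit, gave ratios of -0.30 in neurons, -1.72 in glia, -0.52 in vessels, -0.25 in fibroblasts and -0.74 in immune cells. Tapbp (chr17:33919478-33929290), tapasin, gave -0.33, -1.44, -0.15, -0.049 and -1.07 in the same order. With the interferon-led clusters left out, Tap2 gave -0.25 (-0.46 to -0.054) in neurons, -0.89 (-1.17 to -0.62) in glia and -0.28 (-0.94 to 0.35) in immune cells, and Tapbp gave -0.27 (-0.37 to -0.16), -0.60 (-0.83 to -0.37) and -0.61 (-0.98 to -0.25). Both had ratios below 0 in all 5 classes, though no interval is given for vessels and fibroblasts, where the Tapbp differences were small. Neither passed 2-fold in any class without these clusters. Among single glial types Tapbp gave -1.15 (-1.90 to -0.48) in non-myelinating Schwann cells, from 168 and 20 UMIs. Nlrc5, the class I transactivator, was sparse, with 114 and 44 UMIs in control and CFA neurons, 93 and 5 in glia and 48 and 13 in immune cells, or log2 ratios of -0.17 (-0.71 to 0.34), -3.21 (-4.86 to -1.93) and -0.79 (-1.80 to 0.11). Interferon-led glia held 63 of the 93 control glial UMIs, and without them 30 and 5 UMIs remained, too few for a ratio. In neurons without theirs the ratio was 0.34 (-0.23 to 0.89).

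The makeup of the proteasome differed by cell class. The share of the inducible Psmb8 (chr17:34198195-34201454) among the UMIs of Psmb8 and its constitutive counterpart Psmb5 was 25.5% (24.4 to 26.6) and 21.5% (20.1 to 23) in neurons. It was 87% and 86.1% in immune cells, 84.6% and 83.9% in vessels and 67.5% and 64.8% in fibroblasts. In glia it was 84% (82.1 to 85.8) and 55.4% (48.9 to 61.7), and 68.9% and 54.3% without the interferon-led cluster. In immune cells without theirs it was 80.8% and 86.1%. In neurons without the interferon-led PEP1 cluster it was 21.9% and 21.1%, so that the libraries were close. Since these shares set 1 gene against another, their height depends on how well each gene is captured, and only their differences between classes and libraries are read here.

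Psmb9 (chr17:34182030-34187330), paired with Psmb6, made up 2.80% and 1.83% in neurons, 26.6% and 5.76% in glia, 36.1% and 38.5% in vessels, 25.6% and 15.9% in fibroblasts and 39.4% and 23% in immune cells. Psmb10 (chr8:105935728-105938392), paired with Psmb7, made up 20.9% and 16.7% in neurons, 41.1% and 19.5% in glia, 46.4% and 45.9% in vessels, 46.1% and 34.6% in fibroblasts and 55.3% and 38.2% in immune cells. Without the interferon-led clusters the Psmb9 share was 2.32% and 1.82% in neurons, 12.8% and 5.38% in glia and 35.2% and 23% in immune cells. The Psmb10 share was then 18.9% and 16.6% in neurons, 27.8% and 18.8% in glia and 46.4% and 38.2% in immune cells. Among the cell classes, neurons had the lowest share for each of the 3 subunits in the control library, with and without these clusters. Oligodendrocyte-like cells, pooled in glia, had a Psmb8 share of 7.69% and 3.57%, from 2 and 1 Psmb8 UMIs. Among neuronal subtypes the control Psmb8 share ran from 5.41% in NF to 37.0% in PEP1, or 30.7% in PEP1 without the interferon-led cluster. The summed constitutive subunits gave log2 ratios of 0.13 in neurons, 0.022 in glia, 0.0040 in vessels, -0.046 in fibroblasts and -0.42 in immune cells, against -0.20, -2.01, -0.098, -0.59 and -1.23 for the summed inducible subunits. The latter gave -0.0081 (-0.084 to 0.067) in neurons, -0.92 (-1.12 to -0.73) in glia and -0.67 (-0.99 to -0.37) in immune cells once the interferon-led clusters were left out.

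**Figure D4:**
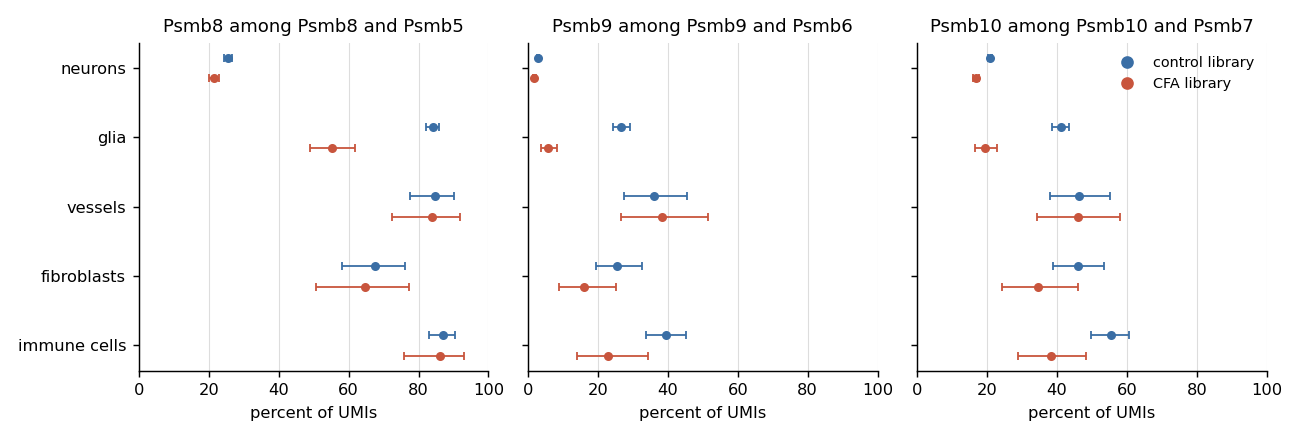
Share (%) of each inducible proteasome subunit among its own UMIs and those of the constitutive subunit it replaces, by cell class and library, with Clopper-Pearson 95% intervals. Neurons lie lowest for Psmb8, at 25.5% and 21.5%, and the values plotted include the interferon-led clusters, without which the glial Psmb9 share was 12.8% and 5.38%.

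The interferon-led clusters held the highest class I levels of their classes. Clustering used interferon-induced genes, though not the 54 genes described here, so that a contrast of these clusters with the remaining cells is a description. In the control library the interferon-led glia held 9.99 (9.66 to 10.3) times the heavy chain level of the other glia, at 11600.1 and 1161 CPM. The ratio was 6.08 for B2m, 7.39 for H2-D1, 10.1 for H2-K1, 44.8 for H2-T23, 14.7 for Psmb8, 8.52 for Tap1 and 18.4 for Nlrc5. The transcription factor Irf1 stood at 1.97 times, and the constitutive subunits Psmb5 to Psmb7 together at 1.21 times. Of the genes of the rule, 21 had at least 50 UMIs over this cluster and the other control glia together. All 21 were at least 2-fold higher in this cluster, against 4.64% of all genes. A gene high in the cluster could pass the limit through its counts there, as H2-Q6 with 52 UMIs in the cluster and 4 outside it. The count is therefore a description and is not read as support.

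In the interferon-led PEP1 cluster of 15 control cells, heavy chains stood at 4.93 (4.68 to 5.20) times the level of the other PEP1 neurons, B2m at 4.83, H2-T23 at 22.4, Psmb8 at 9.01 and the constitutive subunits at 1.01. All 19 genes with at least 50 UMIs over this cluster and the other control PEP1 neurons were at least 2-fold higher there, against 2.88% of all genes. In the interferon-led immune cluster heavy chains stood at 1.81 (1.69 to 1.92) times, B2m at 2.52, the summed Tap1, Tap2 and Tapbp at 4.12 and the summed inducible subunits at 4.69 times the level of the other immune cells. There 14 of 21 genes were at least 2-fold higher, against 8.98% of all genes. The counts in PEP1 and immune cells have the same limit as that in glia. The fold of the heavy chains was smallest in the immune cluster, where the level of the other cells was 5844 CPM.

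Class II genes were concentrated in immune cells. Cd74 (chr18:60803849-60812652) and the classical chains H2-Aa (chr17:34282744-34287823), H2-Ab1 (chr17:34263227-34269418) and H2-Eb1 (chr17:34305867-34316674) together held 20288 and 21615 CPM in immune cells. The level was 323 and 23.9 CPM in glia, 241 and 41.1 CPM in vessels, 57.7 and 76.3 CPM in fibroblasts and 37.8 and 11.3 CPM in neurons. In immune cells the log2 ratio was 0.091 (95% interval 0.056 to 0.13), and 0.39 (0.35 to 0.43) without the interferon-led cluster, so that the class II level of all immune cells together was somewhat higher in the CFA library. The ratio was -3.75 (-4.11 to -3.42) in glia, -2.55 (-3.50 to -1.73) in vessels, -1.74 (-1.97 to -1.52) in neurons and 0.40 (-0.17 to 0.96) in fibroblasts, where the interval spanned 0. In glia without the interferon-led cluster it was -1.41 (-1.79 to -1.05), at 63.1 and 23.7 CPM, and in neurons without theirs -1.46 (-1.69 to -1.23). In these glia 39 of 3877 control cells held 64.4% of the 357 UMIs, 1 of them 38. In the CFA library 22 of 2186 held 58.1% of 74. Of the UMIs, 32.5% and 33.8% lay in cells with a UMI of an immune cell marker. In vessels 4 of 362 control cells held 63.9% of the 147 class II and Cd74 UMIs, 1 of them 46, and the CFA library had 13.

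Within immune cells, macrophages held 24336 and 25224 CPM, and B cells 20289 and 29269 CPM, from 49 and 18 cells. Macrophages were 164 of the 413 control and 152 of the 248 CFA immune cells. Their class II genes with at least 50 UMIs had a median log2 ratio of -0.10, with 5 of 6 below 0. Of all genes with as many UMIs in macrophages, 1088 of 2228 lay below 0. A macrophage cluster low in class II, led by P2ry12, Tmem119 and Cd34, held 30 and 46 of these cells. Both other macrophage clusters were higher in class II in the CFA library, as given below. The part of cell makeup in the class II ratios of macrophages and of all immune cells was not tested. An unnamed cluster led by S100a4, Plac8 and Napsa held 21103 and 32279.6 CPM. The cluster named neutrophils and monocytes, led by Mmp8, Retnlg and Ltf, held 65.2 and 27.9 CPM, from 6 and 1 UMIs. Plac8, a marker used for that name, was among the leading genes of the unnamed cluster instead. Every value under the name neutrophils and monocytes is that of the cluster led by Mmp8, and none is read as the level of monocytes. T and NK cells had 7 and 0 UMIs, with an upper limit of 80.4 CPM in the CFA library. The interferon-led immune cluster, found in the control library only, held 46267 CPM. Class II and class I thus gave different orders among immune cells, since T and NK cells held 9836 and 8430.1 CPM of heavy chains, above macrophages and B cells.

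**Figure D5:**
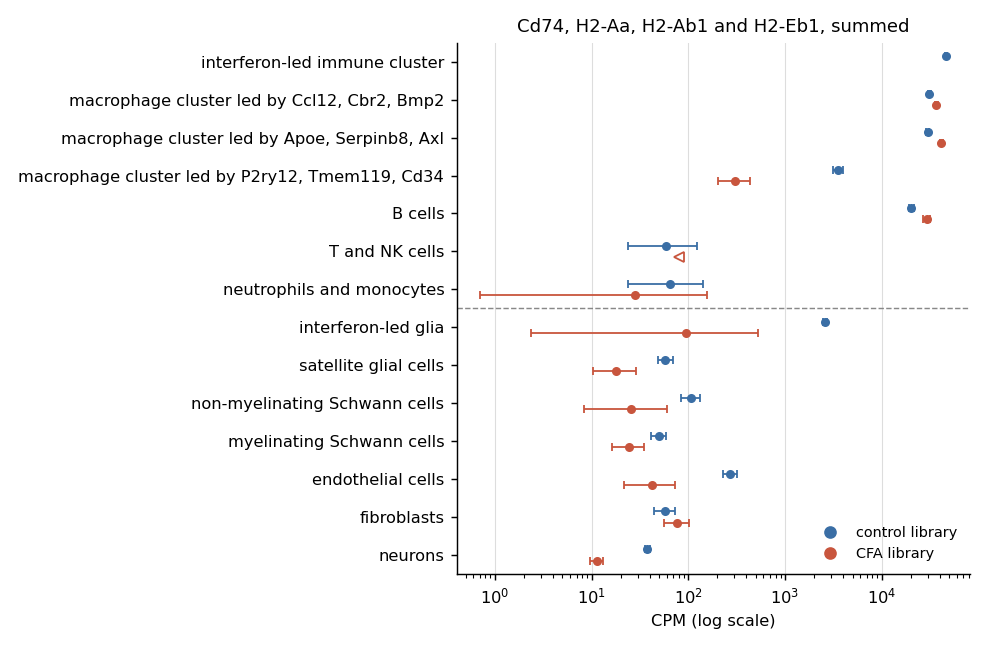
Summed Cd74, H2-Aa, H2-Ab1 and H2-Eb1 level (CPM, log axis) by immune subtype or macrophage cluster and by other cell type, 1 point per library with exact Poisson 95% intervals, with immune and other cells parted by the dashed line. The open triangle marks 0 UMIs in T and NK cells of the CFA library at the upper limit of 80.4 CPM, and B cells and the macrophage clusters led by Ccl12 and by Apoe lie at or above 20289 CPM in both libraries.

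The 3 macrophage clusters differed in class II far more than in class I. The cluster led by Ccl12, Cbr2 and Bmp2 held 31228 and 36583 CPM, and the cluster led by Apoe, Serpinb8 and Axl held 29837 and 41340.5 CPM. The cluster led by P2ry12, Tmem119 and Cd34 held 3549 and 303 CPM, from 281 and 29 UMIs. In the latter the top 2 of 30 control cells held 48.4% of these UMIs, and a UMI was found in 36.7% and 43.5% of cells. Its log2 ratio of -3.55 (-4.15 to -2.99) thus rested in part on a pair of cells. Heavy chains stood at 5924, 5103 and 5078 CPM among control cells and at 6223, 5406 and 5387 CPM among CFA cells, in the same order of clusters.

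By gene, Cd74 held 6094 and 8372 CPM in immune cells and a log2 ratio of 0.46 (0.40 to 0.52). H2-Aa held 5161 and 5319 CPM, with a ratio of 0.043 (-0.029 to 0.12). H2-Ab1 held 5467 and 4753 CPM (-0.20) and H2-Eb1 held 3567 and 3171 CPM (-0.17). Without the interferon-led cluster the ratio was 0.62 (0.55 to 0.68) for Cd74, the invariant chain, 0.33 (0.25 to 0.41) for H2-Aa, 0.21 (0.13 to 0.29) for H2-Ab1 and 0.23 (0.13 to 0.33) for H2-Eb1. All 4 genes were thus higher in the CFA library over all immune cells without that cluster, and the lower values of both beta chains rested on it.

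Of the accessory class II genes, H2-DMa and H2-DMb1 encode H2-DM, which exchanges peptides on class II molecules, and H2-Oa and H2-Ob encode its inhibitor H2-O. In immune cells H2-DMa held 274 and 208 CPM, H2-DMb1 173 and 159 CPM, H2-Ob 85.5 and 73.8 CPM and H2-Oa 16.2 and 11.5 CPM, the latter from 15 and 5 UMIs. H2-Ob was concentrated in B cells, with 48 of 79 control and 21 of 32 CFA immune UMIs. H2-DMa was also counted in neurons, with 229 and 102 UMIs at 5.93 and 6.07 CPM and a ratio of 0.033 (-0.32 to 0.38). Ciita, the class II transactivator, had 35 and 13 UMIs in immune cells, 34 and 3 in neurons and 33 and 0 in glia. Of its control UMIs, 31 lay in interferon-led glia and 22 in the interferon-led immune cluster.

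Outside immune cells, class II counts were highest in the interferon-led glia, at 2601 CPM in the control library, which held 1678 of the 2035 control glial UMIs. This was 41.2 (36.8 to 46.3) times the level of the other glia, with 39.1 for Cd74, 35.2 for H2-Aa and 53.1 for H2-Ab1. The summed markers of immune cells, by contrast, stood at 0.870 (0.451 to 1.54) times. A Cd74 UMI was found in 17.6% of these glia and an H2-Aa UMI in 25.1%, or 11.1% and 12.7% after thinning to 500 UMIs. In satellite glial cells a Cd74 UMI was found in 1.69% and 1.14% of cells and in myelinating Schwann cells in 1.07% and 0.612%. T and NK cells, which should lack both genes, had medians of 1534 and 1370.5 UMIs, against 1704 in control interferon-led glia. Cd74 UMIs were found in 0 of 59 and 0 of 30 of them, which allows shares of up to 5.08% and 10%. H2-Aa UMIs were found in 5.08% of the control T and NK cells, and a UMI of any of the 4 genes in 6 of them, or 10.2%, against 38.8% of the interferon-led glia. The Cd74 shares in satellite glial and myelinating Schwann cells lay below those limits and are not read as expression.

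Counts of class II per UMI of 8 immune cell markers were compared, because RNA from immune cells, whether free or in doublets, would carry both. The ratio was 2.65 and 2.53 in immune cells of the control and CFA libraries. Among control immune subtypes and macrophage clusters the ratio ran from 0.0057 in neutrophils and monocytes to 4.94 in macrophages led by Ccl12. In interferon-led glia it was 129 (75.3 to 243), and the 4.23% of these cells with a marker UMI held 3.81% of the class II UMIs. In satellite glial cells it was 4.07 and 1.89, in non-myelinating Schwann cells 2.63 in the control library, in myelinating Schwann cells 2.61 and 1.15, and in endothelial cells 3.34 and 2.40. In the latter types the ratios lay on either side of those of immune cells, though in the control library this rested on Coro1a. Without Coro1a the control ratio was 11.1 (5.98 to 22.8) in satellite glial cells and 7.19 (4.24 to 13) in myelinating Schwann cells. It was 4.94 in non-myelinating Schwann cells and 4.57 in endothelial cells, against 2.94 in immune cells and 5.46 in B cells. In the CFA library it was 2.14 (1.10 to 4.37) in myelinating Schwann cells, against 2.81 in immune cells. The other types were higher there, from few marker UMIs. The part of immune cell RNA in the class II counts of these types was not tested. The interferon-led glia divided by glial markers, a split chosen after seeing the data, held 3573 CPM of class II in the 121 control cells with Fabp7 and without Scn7a and 1401 CPM in the 90 with Scn7a and without Fabp7. Heavy chains stood at 12238 and 12400.3 CPM in the same cells.

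In neurons a class II or Cd74 UMI was found in 48.3% of control and 24.8% of CFA cells, at mean counts of 1.78 and 0.444 UMIs per neuron. The neuronal counts were uneven, since the top 2 control neurons held 22.7% of them. In NF 81% of 321 control UMIs lay in 2 cells, 1 of which held 235, and in cLTMR 66% of 162 lay in 2 cells. Thinned to 500 UMIs, 0.487% of control and 0.234% of CFA neurons had a Cd74 UMI. The immune marker Coro1a is also a neuronal gene, and without it neurons held 5.03 and 3.28 class II UMIs per immune marker UMI, against 2.94 and 2.81 in immune cells. Among control immune subtypes this value ran from 0.0067 in neutrophils and monocytes to 5.46 in B cells, with 5.22 in macrophages led by Ccl12. The range among immune subtypes was wide, and the control neuronal value lay above that of all immune cells together. By neuronal subtype the control value ran from 0.857 in PEP2 to 9.73 (6.79 to 14.4) in NF. It was 6.93 (5.49 to 8.84) in PEP1, or 4.22 without the interferon-led cluster, 3.18 in cLTMR, 2.81 in NP1 and 2.53 in NP2. In PEP1 the class II ratio was -2.02 (-2.41 to -1.66) with the interferon-led cluster and -1.11 (-1.51 to -0.72) without it, in NP1 -1.34 (-1.94 to -0.78) and in NP2 -0.25 (-1.08 to 0.49). The part of immune cell RNA in the neuronal counts was not tested.

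Other genes of the pathway were counted from lists chosen by function. Of the 22 interferon-induced genes, led by Gbp2, Oasl2 and Ifit1, those at least 2-fold lower in CFA numbered 11 of 20 with enough UMIs in neurons, 19 of 21 in glia, 8 of 19 in vessels, 4 of 17 in fibroblasts and 12 of 15 in immune cells, and 0 were 2-fold higher in any class. Their median log2 ratio was -1.15 in neurons, -2.53 in glia, -0.60 in vessels, -0.37 in fibroblasts and -1.67 in immune cells, while without the interferon-led clusters 6 of 17 in neurons, 8 of 17 in glia and 5 of 12 in immune cells were past the lower fold, with medians of -0.71, -0.99 and -0.88. Of all genes with at least 50 UMIs, the lower fold was passed by 1.3% in neurons, 3.06% in glia and 3.37% in vessels. The share was 2.7% in fibroblasts and 6.91% in immune cells. Without the interferon-led clusters it was 1.23% in neurons, 2.07% in glia and 5.91% in immune cells. The median log2 ratio was below 0 in every class for the interferon-induced genes and for the class I genes. In satellite glial cells 0 of 12 interferon-induced genes passed the lower fold, against 110 of 7393 of all genes, with a median of -0.10. Heavy chains gave -0.29 and B2m -0.64 there. Since interferon-led clusters were called from this list, its smaller difference without them is not read as a result. The part of these genes in the class I difference was not tested.

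The 11 loading partners outside the rule, led by the chaperones Calr, Canx and Pdia3, had 0 of 11 genes past the lower fold in neurons with a median of 0.084, 1 of 10 in glia with -0.61 and 2 of 9 in immune cells with -0.50. The 11 class II route partners, led by the proteases Ctsb, Ctsl and Lgmn, had 1 of 8 in neurons with a median of -0.12, 0 of 7 in glia with -0.24 and 2 of 8 in immune cells with 0.48. Neither list had a gene past the higher fold in these classes. Of all genes, 1.3% in neurons, 3.06% in glia and 6.91% in immune cells passed the lower fold, with medians of -0.0017, 0.024 and -0.064. The shares past the higher fold were 1.01%, 3.06% and 2.49%. The medians of the loading partners without the interferon-led clusters were 0.13 in neurons, -0.26 in glia and -0.15 in immune cells, with 0 of 11, 0 of 10 and 0 of 9 past the lower fold. Those of the route partners were -0.12, -0.063 and 0.54, with 1 of 8, 0 of 6 and 0 of 7 past the lower fold and 1 past the higher fold, in immune cells. Of all genes without these clusters, 1.23%, 2.07% and 5.91% passed the lower fold, with medians of -0.0011, 0.026 and -0.059. In immune cells 2.2% passed the higher fold. The 16 genes of interferon ligands, receptors and signalling had 0 of 13 past the lower fold in neurons, 2 of 14 in glia and 3 of 13 in immune cells, with medians of 0.027, -0.28 and -0.27, or 0 of 13, 0 of 14 and 2 of 13 with medians of 0.076, -0.23 and -0.28 without these clusters. Among them Irf1, a transcription factor, gave -0.57 (-0.68 to -0.46) in neurons, 0.062 (-0.038 to 0.16) in glia and -1.23 (-1.77 to -0.72) in immune cells. Without these clusters it gave -0.50 (-0.62 to -0.39), 0.20 (0.097 to 0.30) and -0.98 (-1.53 to -0.45). Ifng, which encodes interferon-gamma, was counted in immune cells with 48 and 4 UMIs, of which 38 and 4 lay in T and NK cells, at 323 and 87.1 CPM. Inhibitory and killer cell receptors and T cell coreceptors, listed together though not all bind class I, were sparse. Of the 12 listed only 3 had 50 UMIs in immune cells.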

How the data were processed

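Single cells of the right TG were profiled on the BD Rhapsody system in 1 control and 1 CFA library and sequenced on an Illumina NovaSeq. The authors deposited whole-number UMI counts per gene and cell, without normalization. The submitters' processing notes name build GRCm38 and fastp, whereas pipeline version and annotation are not given in the sources used here. Sample groups came from the labels. The 54 members and all lists were chosen with earlier results of these data known, and the naming thresholds were set after clusters had been seen.

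The files held 7298 and 4080 cells. A cell was kept with at least 150 genes and up to 25% of counts from mitochondrial genes. Both libraries were clustered together in Seurat 5.3.0 (R 4.3.3) without the members, with 2000 variable genes, 20 principal components, 20 neighbours and a resolution of 0.8, or 1 for neurons and immune cells. A cluster was named from 8 markers per type (6 to 8 for subtypes), of which at least 3 had to be found. Clusters with 3 or more interferon-induced genes among 10 leading genes were called interferon-led. Scrublet in scanpy 1.11.5, at an expected rate of 0.05, marked 107 and 4 doublets, which were kept, and 122 and 25 cells scored above 0.25.

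UMIs were summed per class and library, and CPM carry exact Poisson, shares Clopper-Pearson and ratios conditional exact binomial intervals (Python 3.11.15, scipy 1.17.1), all at 95%. The floor for 0 counts was 3. No test was made, since each condition had 1 library. The procedure was tested on simulated data. Genes named were members with at least 1000 UMIs, the genes that mark the set, the partners and accessory class II genes, Irf1, Ifng and Psmb5 to Psmb7, and the 3 genes of each list with most UMIs. Some of these genes are listed by count only and not reported here. H2-M3, H2-Q6, H2-Q7, H2-K2, H2-T10 and H2-Q10, and members past 2-fold, were named outside that rule after their values were seen. Windows around start sites came from RefSeq, GRCm38.p6, and gene positions from an annotation of GRCm38. Protein identity between heavy chains was not analysed here. Alternatives concerned filters, clustering, scaling and depth.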

Additional observations from a re-analysis of the deposited data

Results flagged for a closer look

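In 3 sets of genes the libraries differed in opposite directions between cell groups, with counting intervals that did not span 0. None of these differences between cell groups was tested, since each condition had 1 library. Class I heavy chains were higher in the CFA library in PEP2, at a log2 ratio of 0.50 from 12 control and 11 CFA cells, and lower in PEP1, at -0.24, or -0.043 without the interferon-led cluster. Cd74 with the classical class II chains was higher in immune cells of the CFA library, at 0.091, and lower in glia, at -3.75, or -1.41 without the interferon-led cluster, where 1678 of 2035 control UMIs lay in the interferon-led glia. The summed Psmb8, Psmb9 and Psmb10 were higher in NP2, at 0.41 from 53 and 16 cells, and lower in PEP1, at -0.36, or 0.0073 without the interferon-led cluster.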

How the results depend on the processing

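The main results were recomputed under 15 alternatives, of which 245 values stayed within 1 counting interval, or 1.5 times for counts, 37 moved and 1 reversed, and the cause of a move was not tested where none is given. Of the ratios of single types, 90 stayed and 12 moved. Of the levels and shares, 541 stayed and 83 moved. Over the alternatives the heavy chain ratio ran from -1.53 to -0.22 in satellite glial cells and from -1.38 to -0.40 in non-myelinating Schwann cells. It ran from -1.25 to -0.61 in myelinating Schwann cells and from -0.50 to -0.31 in endothelial cells. B2m gave -1.65 to -0.63, -1.15 to -0.65, -1.05 to -0.60 and -0.81 to -0.73 in the same order. Further splits, chosen after seeing the data, stand in the text: Coro1a left out of the markers, the interferon-led glia divided by Fabp7 and Scn7a, and each macrophage cluster apart. Without interferon-led clusters, which removes the cells with the highest levels, the log2 ratio of heavy chains was -0.17 in neurons, -0.77 in glia and 0.013 in immune cells (reversed), that of B2m -0.39, -0.97 and -0.33, that of class II in immune cells 0.39, and the genes at least 2-fold lower numbered 8 in glia and 1 in immune cells. With cells thinned to equal depth the heavy chain ratio was -0.29 in neurons and -1.34 in glia, that of B2m -0.44 in neurons, -1.31 in glia and -0.45 in immune cells, that of class II 0.20 in immune cells, and the lower genes numbered 0 in vessels, 0 in fibroblasts and 1 in immune cells. With every cell weighted equally the heavy chain ratio in glia was -1.44, that of B2m -1.29 in glia and -0.46 in immune cells, class II gave 0.20, and 3 genes were lower in immune cells. With the stricter cell filter (300 genes, 10% mitochondrial) the glial ratios were -2.01 and -1.73, and 0 genes were lower in fibroblasts. With possible doublets left out 1 gene was lower in vessels and 0 in fibroblasts. Centred on the median gene, class II in immune cells gave 0.15. At a limit of 1.5-fold the lower genes numbered 8 in neurons, 4 in vessels, 3 in fibroblasts and 9 in immune cells, and 1 was higher in immune cells. With a minimum of 10 UMIs 8 were lower in vessels, and 2 were higher in neurons, 2 in fibroblasts and 1 in immune cells. The counts of genes under these alternatives are given without the share of all genes past the same limit. They show only how the counts move and are not read as results on these genes.

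No paired analysis was possible because each group had 1 library, and leaving out a replicate was not an option. Genes with fewer than 50 UMIs in all allowed no ratio.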
